A study of Mus musculus with 6 samples.

Results

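A set of 10 genes of monocytes and macrophages was followed in the colon of mice with chemically induced colitis, and all 10 were found among the 27202 genes listed. They were taken by name: *Ly6c2* and *Ccr2* for inflammatory monocytes newly recruited from blood, *Adgre1*, *Csf1r*, *Cx3cr1* and *Mrc1* for macrophages resident in the tissue, and *Cd68*, *Itgam*, *Cd14* and *Lyz2*, which both kinds of cell use. There were 3 libraries of colonic tissue from *Nedd4l fl/fl VillinCre* mice, here called cKO, and 3 from *Nedd4l fl/fl* littermates, here called WT. Both groups carried the floxed *Nedd4l* allele on a C57BL/6J background, were 8 to 10 weeks old, and drank 2% dextran sulfate sodium (DSS), a polysaccharide that injures the colonic epithelium, until day 7. *Nedd4l* encodes an E3 ubiquitin ligase, and Cre driven by the Villin promoter deletes it in intestinal epithelial cells, not in blood cells. WT mice carried no Cre, and the sex behind each library is not given. No undamaged colon was included, so every level below is a level during colitis. The question was which of these genes differed between the genotypes, and whether the genes of recruited and of resident cells differed alike.

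The colon's macrophages are renewed from blood. Monocytes that carry Ly6C leave the marrow and enter tissue through the chemokine receptor CCR2, and in a healthy gut they then lose Ly6C and gain F4/80, CX3CR1 and the mannose receptor as they become resident macrophages. In colitis many arrive and remain inflammatory, which is why the monocyte and the macrophage genes are read apart.

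Values are normalized counts: the reads of a gene over the size factor of its library. Totals ran from 15530711 to 16488596 normalized counts in the 6 libraries. Differences are log2 fold changes of cKO minus WT on the scale log2(normalized count + 1), which understates the changes of genes with low counts, from limma over 16246 genes with a mean of at least 10, and SE is their standard error. All 10 genes passed this filter. *Nedd4l* itself stood at 476, 942 and 566 in cKO replicates 1, 2 and 3 and at 1241, 1271 and 1266 in WT replicates 1, 2 and 3, so every cKO library was below every WT library (log2 fold change −0.99, SE 0.24, limma adjusted p = 0.225). It was nearest to WT in cKO replicate 2, and over all tested genes that library correlated with the WT libraries at a mean r of 0.977 and with its own genotype at 0.966. That own-genotype mean includes cKO replicate 1, which correlated least, at 0.963 with its own genotype and 0.948 with WT. For cKO replicate 3 these means were 0.975 and 0.973. In these whole-tissue samples, fewer cells of a type and less RNA per cell cannot be told apart.

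Both monocyte genes were higher in every cKO library than in any WT library, whereas the 4 resident macrophage genes overlapped between the genotypes. *Ly6c2* had 2.96 times and *Ccr2* 2.17 times the WT mean. *Csf1r*, *Adgre1* and *Mrc1* stood at 1.06, 1.11 and 0.968 times the WT mean and *Cx3cr1* at 0.729 times. Of the 10 genes, 0 passed an adjusted p of 0.05, as 0.0% of all tested genes did in either direction. At an unadjusted p under 0.05, 4 of 10 were higher (*Ly6c2*, *Ccr2*, *Lyz2* and *Cd68*) and 0 lower, where 6.91% of all tested genes were higher and 7.08% lower. In 3 of 10 the cKO libraries lay wholly above the WT libraries, as in 10.5% of all tested genes, and in 0 of 10 wholly below, as in 10.9%. The log2 fold change was positive in 9 of 10, as in 50.2% of all tested genes, and its median was 0.35 against 0.0013.

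The counts at the unadjusted p and the signs were also taken with a library left out. Without cKO replicate 1, 3 of 10 were higher and 0 lower at that unadjusted p (all tested genes, 5.31% and 6.32%), and 9 of 10 were positive. Without cKO replicate 2, 4 of 10 were higher and 0 lower (8.93% and 8.77%), and 7 of 10 were positive. Without WT replicate 2, 3 of 10 were higher and 1 lower (4.88% and 4.55%), the lower one being *Cx3cr1*, and 6 of 10 were positive.

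**Figure D1:**
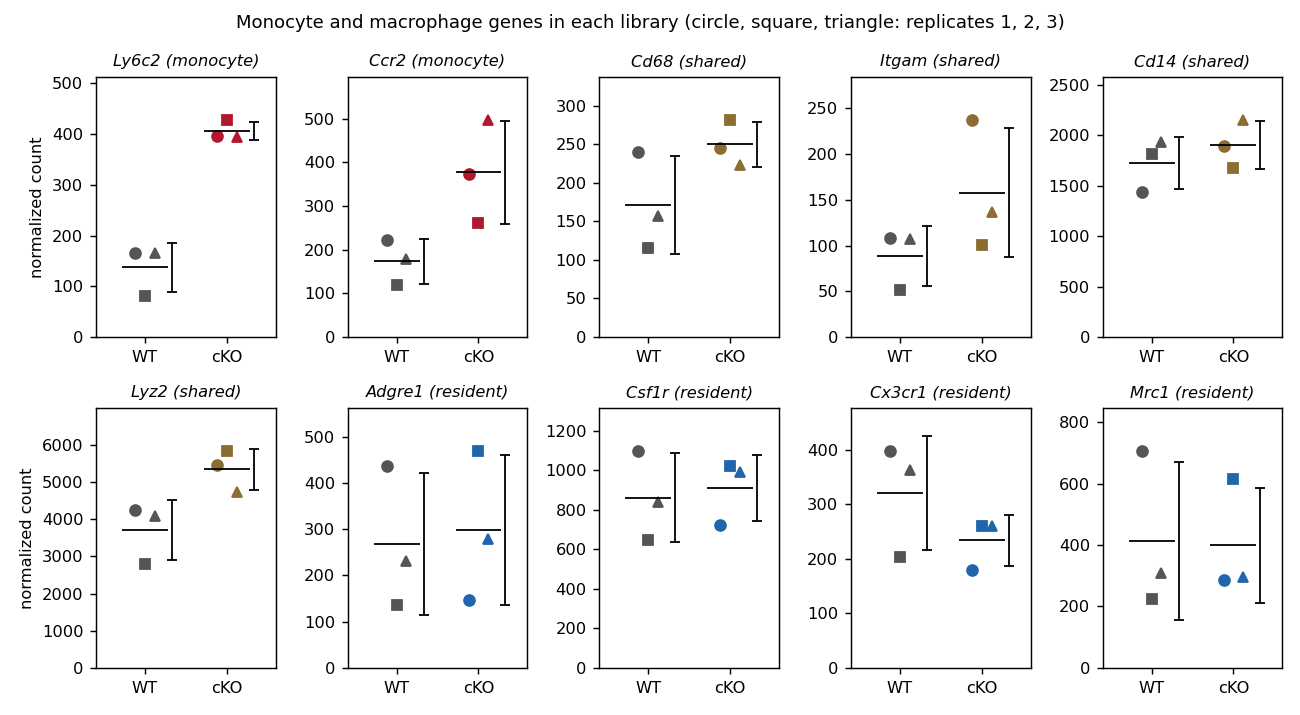
Normalized count of each of the 10 genes in the 6 libraries, WT in grey and cKO in color (circles, squares and triangles are replicates 1, 2 and 3), with the mean as a line and the SD as a bar. The 3 cKO points lie above the 3 WT points for *Ly6c2*, *Ccr2* and *Lyz2*, and the points mix for the other 7 genes.

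*Ly6c2* encodes the Ly6C antigen by which mouse inflammatory monocytes are recognized (ENSMUSG00000022584, chromosome 15 of GRCm38 from 75108158 to 75111970, minus strand). Its normalized count was 396, 427 and 395 in cKO replicates 1, 2 and 3 and 165, 81.9 and 165 in WT replicates 1, 2 and 3. The cKO libraries lay close together, and the lowest of them was well above the highest WT library. Mean values were 406 ± 18.1 (SD, n = 3) in cKO and 137 ± 47.9 (SD, n = 3) in WT, which is 1.63 on the log2 scale (SE 0.27, 95% interval 1.00 to 2.25, limma adjusted p = 0.137). By unadjusted p, *Ly6c2* was gene 43 of the 16246 tested.

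*Ccr2* encodes the receptor for the chemokines CCL2 and CCL7 (ENSMUSG00000049103, chromosome 9 from 124101950 to 124113557, plus strand). It stood at 374, 261 and 496 in cKO replicates 1, 2 and 3 and at 221, 119.7 and 180 in WT replicates 1, 2 and 3. The groups did not overlap, and cKO replicate 2 was nearest to WT. Mean values were 377 ± 118 (SD, n = 3) in cKO and 174 ± 51.1 (SD, n = 3) in WT, which is 1.11 on the log2 scale (SE 0.30, 95% interval 0.41 to 1.81, limma adjusted p = 0.248). With limma's array weights, which weight each library by how well it matches the model, *Ly6c2* (1.53, adjusted p = 0.0180) and *Ccr2* (1.39, adjusted p = 0.0354) both passed 0.05, as 1.61% of all tested genes did in that direction. These fits rest mostly on cKO replicate 3 within cKO, the library with the most *Ccr2*. Its weight was 4.39, against 0.414 and 0.562 for cKO replicates 1 and 2. Over 14 alternative settings the limma adjusted p ranged from 0.0180 to 0.487 for *Ly6c2* and from 0.0354 to 0.512 for *Ccr2*.

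The starts of these genes are shown because *Ly6c2* and *Ccr2* separated the genotypes and the resident gene *Mrc1* did not. Each run is RefSeq sequence on GRCm38.p6, in the direction of the gene, from 250 bases before the start to 50 bases after it. Capitals mark the PU box GAGGAA, a sequence that the myeloid factor PU.1 binds, in either direction (TTCCTC on the other strand). The shorter GGAA on its own is not marked. *Ly6c2* lies at chr15:75111922-75112221 (minus strand, the more upstream of 2 listed starts), *Ccr2* at chr9:124101933-124102232 (plus strand) and *Mrc1* at chr2:14229164-14229463 (plus strand).
Ly6c2: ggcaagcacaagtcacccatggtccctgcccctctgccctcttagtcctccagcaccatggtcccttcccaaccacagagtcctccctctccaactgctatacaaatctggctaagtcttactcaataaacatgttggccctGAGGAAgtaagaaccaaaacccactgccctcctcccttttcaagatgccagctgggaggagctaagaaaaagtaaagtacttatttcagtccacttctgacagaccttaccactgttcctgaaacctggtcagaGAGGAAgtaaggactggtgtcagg
Ccr2: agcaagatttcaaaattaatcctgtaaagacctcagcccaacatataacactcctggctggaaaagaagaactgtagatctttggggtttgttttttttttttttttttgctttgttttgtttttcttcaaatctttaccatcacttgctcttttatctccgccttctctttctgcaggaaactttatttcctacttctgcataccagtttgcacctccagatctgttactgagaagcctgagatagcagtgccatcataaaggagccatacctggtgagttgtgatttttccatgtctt
Mrc1: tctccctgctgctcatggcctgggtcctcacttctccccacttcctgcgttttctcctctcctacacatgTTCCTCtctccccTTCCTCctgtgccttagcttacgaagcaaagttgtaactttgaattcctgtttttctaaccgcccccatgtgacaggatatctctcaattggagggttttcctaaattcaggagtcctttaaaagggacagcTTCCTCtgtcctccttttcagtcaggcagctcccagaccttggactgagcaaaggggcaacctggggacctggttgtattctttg
The letters occur 2 times in the *Ly6c2* window, 3 times in the *Mrc1* window and 0 times in that of *Ccr2*. Of the 7 genes of the set whose windows were searched, 4 hold them (*Ly6c2*, *Cd68*, *Itgam* and *Mrc1*), as do 28.3% of 32851 such windows over all genes. The letters were therefore present in both a monocyte gene and a resident gene, and a match is not a binding site.

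*Ly6c2* has a close neighbor, *Ly6c1*, also on the minus strand of chromosome 15 from 75044018 to 75048830, which blood endothelium expresses. Their longest protein-coding transcripts are 97.6% identical over 822 aligned bases, and 32.6% of the 50-base windows of *Ly6c2* occur unchanged in *Ly6c1*, so reads of either gene may be uncertain. *Ly6c1* stood at 3462, 1281 and 2391 in cKO replicates 1, 2 and 3 and at 884, 1266 and 1016 in WT replicates 1, 2 and 3. Per kilobase of exon, *Ly6c1* ran from 764 to 2065 in cKO and from 527 to 755 in WT, above the 144 to 156 and 29.9 to 60.2 of *Ly6c2*. Among the cKO libraries *Ly6c2* was highest in replicate 2, where *Ly6c1* was lowest. The cKO values of *Ly6c2* (395 to 427) lay close together, so their order tells little. The part of *Ly6c1* reads in the *Ly6c2* values was not tested. The log2 fold change of *Ly6c1* was 1.07 (SE 0.37, limma adjusted p = 0.320).

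Of the 4 genes shared by monocytes and macrophages, *Lyz2* separated the genotypes. It encodes the lysozyme of phagocytes, which cleaves bacterial cell walls (ENSMUSG00000069516, chromosome 10 from 117277331 to 117282321, minus strand). Its normalized count was 5467, 5829.6 and 4727 in cKO replicates 1, 2 and 3 and 4254, 2795 and 4081 in WT replicates 1, 2 and 3. All cKO libraries were above all WT libraries, with means of 5341 ± 562 (SD, n = 3) and 3710.2 ± 797 (SD, n = 3). The log2 fold change was 0.54 (SE 0.17, 95% interval 0.15 to 0.94, limma adjusted p = 0.282). *Lyz1*, the lysozyme of Paneth cells and the gene next to it, is 96.0% identical over 1262 aligned transcript bases and shares 15.4% of the 50-base windows of *Lyz2*. With 78.6, 149 and 81.5 in cKO and 21.7, 69.3 and 90.9 in WT replicates 1, 2 and 3, *Lyz1* overlapped between the genotypes. Per kilobase it reached at most 118, against at least 2124 for *Lyz2*.

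*Cd68* encodes a glycoprotein of macrophage lysosomes (ENSMUSG00000018774, chromosome 11 from 69664213 to 69666153, minus strand). It had 245, 281 and 223 in cKO and 240.0, 115 and 157 in WT replicates 1, 2 and 3, so that WT replicate 1 lay among the cKO libraries. The log2 fold change was 0.61 (SE 0.26, 95% interval 0.0045 to 1.21, limma adjusted p = 0.355), and 0.36 without WT replicate 2. *Itgam* encodes CD11b, the alpha chain of complement receptor 3 (ENSMUSG00000030786, chromosome 7 from 128062640 to 128118491, plus strand). It had 237, 101 and 136 in cKO and 109, 51.3 and 107 in WT replicates 1, 2 and 3. The groups overlapped through cKO replicate 2, and the log2 fold change of 0.81 (SE 0.40, 95% interval −0.13 to 1.75, limma adjusted p = 0.408) became 0.47 without cKO replicate 1 and 0.46 without WT replicate 2. Neutrophils carry CD11b as well, and their *S100a9* stood at 2680.1 in cKO replicate 1, 27.6 and 348 in cKO replicates 2 and 3 and at most 15.8 in WT. The part of neutrophils in the *Itgam* value was not tested. *Itgam* also shares 3450 exon bases with *Gm49368* on the same strand, so its reads may be uncertain.

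*Cd14* encodes the co-receptor that hands bacterial lipopolysaccharide to TLR4 (ENSMUSG00000051439, chromosome 18 from 36725074 to 36726736, minus strand). It had 1893, 1673 and 2148 in cKO and 1435, 1817 and 1931 in WT replicates 1, 2 and 3, and the groups overlapped. Its log2 fold change was 0.14 (SE 0.14, 95% interval −0.17 to 0.46, limma adjusted p = 0.643).

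**Figure D2:**
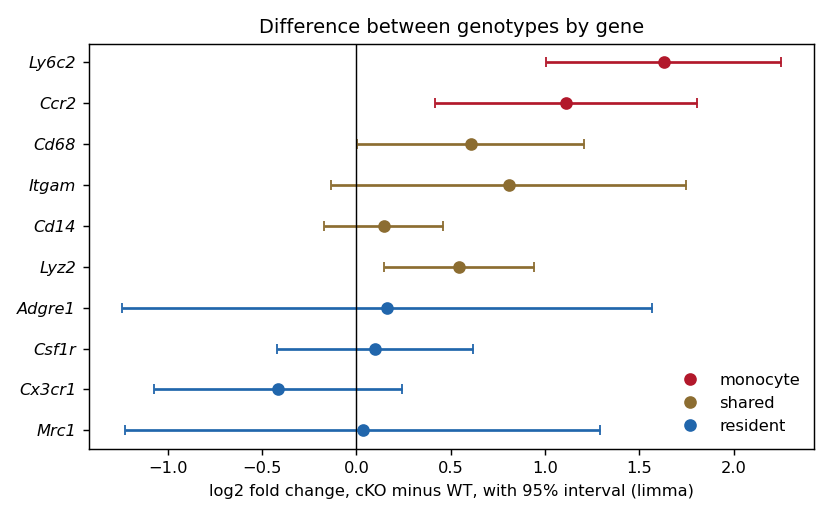
Log2 fold change of cKO minus WT for each gene (point) with its 95% interval from limma (bar), monocyte genes in red, shared genes in brown and resident macrophage genes in blue. The intervals of *Ly6c2*, *Ccr2*, *Lyz2* and *Cd68* lie above 0 before adjustment, and those of *Adgre1* and *Mrc1* are the widest, from −1.24 to 1.57 and from −1.23 to 1.29.

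Of the 4 resident macrophage genes, *Csf1r*, *Adgre1* and *Mrc1* varied more between libraries of a genotype than between genotypes. *Csf1r* encodes the receptor for the growth factors CSF1 and IL-34, on which macrophages depend (ENSMUSG00000024621, chromosome 18 from 61105572 to 61132149, plus strand). It had 721, 1024 and 992 in cKO and 1096, 649.5 and 838 in WT replicates 1, 2 and 3. The highest and the lowest library were both WT, and the log2 fold change was 0.10 (SE 0.22, 95% interval −0.42 to 0.62, limma adjusted p = 0.858). Its exons overlap 873 bases of *Hmgxb3* on the other strand, and those of *Cx3cr1*, described below, 78 bases of *Gm33858*.

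*Adgre1* encodes F4/80, the surface antigen by which mouse macrophages are stained (ENSMUSG00000004730, chromosome 17 from 57358691 to 57483527, plus strand). It had 148, 469 and 278.5 in cKO and 436.5, 137 and 231 in WT replicates 1, 2 and 3, a spread of similar size in both groups. The log2 fold change was 0.16 (SE 0.57, limma adjusted p = 0.914). *Mrc1* encodes the mannose receptor CD206 (ENSMUSG00000026712, chromosome 2 from 14229392 to 14332057, plus strand). It had 286, 616 and 297 in cKO and 705, 225 and 308 in WT replicates 1, 2 and 3. Its log2 fold change was 0.033 (SE 0.51, limma adjusted p = 0.981), although its mean was slightly lower in cKO. As with *Adgre1*, WT replicate 1 and cKO replicate 2 were high.

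*Cx3cr1* encodes the fractalkine receptor, which marks resident macrophages and also the monocytes that patrol vessels (ENSMUSG00000052336, chromosome 9 from 119901616 to 120069879, minus strand). It had 180.2, 261 and 259.9 in cKO and 397, 202 and 362 in WT replicates 1, 2 and 3. WT replicate 2 lay among the cKO libraries, and the other WT libraries lay above all of them. The log2 fold change was −0.42 (SE 0.28, 95% interval −1.07 to 0.24, limma adjusted p = 0.520), and −0.72 without WT replicate 2. Without that library *Adgre1* (−0.24), *Csf1r* (−0.088) and *Mrc1* (−0.32) were also below 0, and without cKO replicate 2 *Adgre1* (−0.24) and *Mrc1* (−0.33) were. WT replicate 2 was the lowest WT library for 9 of the 10 genes, the exception being *Cd14*. Its 6 smooth muscle markers summed to 20465 normalized counts, against 4824 to 10588 in the other 5 libraries, and their part in its low macrophage values was not tested.

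Set against each other within a library, the monocyte genes stood higher relative to the resident genes in each cKO library. The mean log2 value of *Ly6c2* and *Ccr2* minus that of *Adgre1*, *Csf1r*, *Cx3cr1* and *Mrc1* was 0.50, −0.66 and 0.21 in cKO replicates 1, 2 and 3 and −1.66, −1.34 and −1.15 in WT replicates 1, 2 and 3. The lowest cKO library was above the highest WT library, and the genotype means of 0.017 ± 0.60 (SD, n = 3) and −1.38 ± 0.26 (SD, n = 3) differed by 1.40. Quantile normalization also gave 1.40. Total-count scaling gave 1.40 too, but it could hardly do otherwise, since a factor per library nearly cancels in this difference. It became 0.88 when *Cd14*, *Lyz2* and *Itgam* were counted with the monocyte genes. No test is given for it, since the genes were chosen with earlier results known.

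Relative to the WT mean, the monocyte genes averaged 1.37, 1.17 and 1.57 higher on the log2 scale in cKO replicates 1, 2 and 3. The resident genes averaged −0.51, 0.44 and −0.022 in the same libraries, and 0.64, −0.62 and −0.019 in WT replicates 1, 2 and 3. In cKO replicate 1 the monocyte genes were thus high while the resident genes were low, and in cKO replicate 2 both were above the WT mean. In WT replicate 2 both were below it.

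**Figure D3:**
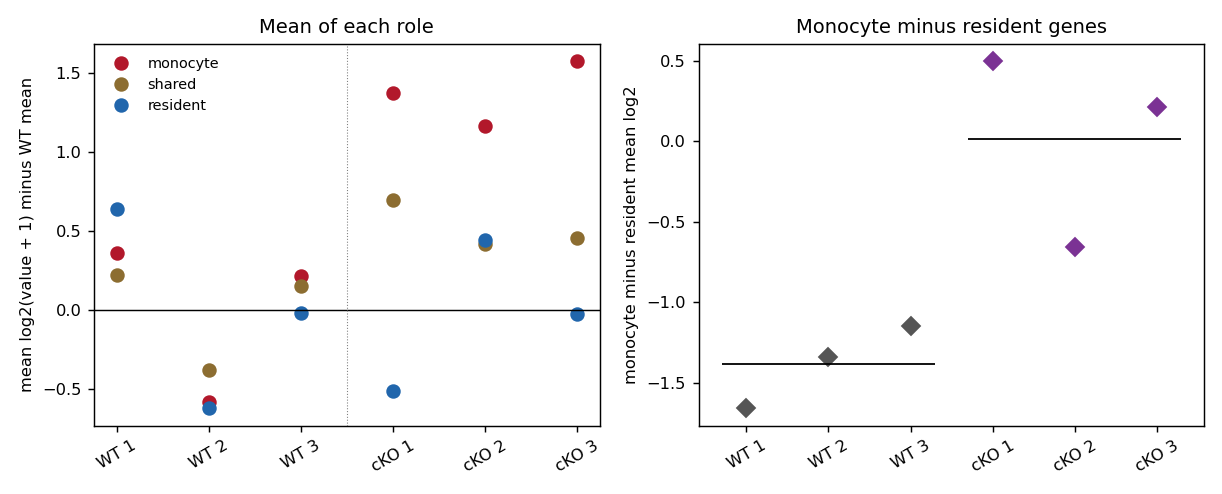
Left, mean of log2(normalized count + 1) for the monocyte, shared and resident genes in each library, less the WT mean of the same genes. Right, monocyte mean minus resident mean in each library with the genotype mean as a line, between −1.66 and −1.15 in the 3 WT libraries and between −0.66 and 0.50 in the 3 cKO libraries.

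Gene by gene, the ratio of a monocyte gene to a resident gene was taken per kilobase of exon. The size of such a ratio depends on the gene lengths used, but the order of the libraries does not. *Ly6c2* per kilobase was 0.979, 0.743 and 0.710 times *Csf1r* per kilobase in cKO replicates 1, 2 and 3, and 0.268, 0.225 and 0.351 times in WT. *Ccr2* per kilobase was 1.38, 0.666 and 1.27 times *Cx3cr1* per kilobase in cKO, and 0.371, 0.394 and 0.331 times in WT. Of 8 such pairs, 6 had every cKO library above every WT library. The other 2 were *Ccr2* with *Adgre1* and *Ccr2* with *Mrc1*, in which cKO replicate 2 lay within the WT range, at 0.267 and 0.399. The pairs reuse the same genes, and *Ly6c2* and *Ccr2* each separated the genotypes on their own. The count of pairs is therefore not separate evidence.

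The order of the genes by level was compared per kilobase. In WT, *Lyz2* led with 2819 ± 606 (SD, n = 3) normalized counts per kilobase, then *Cd14* with 1099 ± 165 (SD, n = 3), and neither range reached the next gene's. From *Csf1r* (176 ± 45.9) through *Cd68*, *Adgre1*, *Cx3cr1*, *Mrc1* (64.8 ± 40.3), *Ly6c2* (50.1 ± 17.5), *Ccr2* (25.7 ± 7.55) and *Itgam* (17.7 ± 6.49), each gene's range overlapped that of its neighbor in the order. In cKO *Lyz2* and *Cd14* again stood apart at the top. *Ly6c2* moved from place 8 to place 5 with 148 ± 6.59 (SD, n = 3) per kilobase, and its range from 144 to 156 overlapped those of *Csf1r* and *Adgre1*. The length used for *Ly6c2* was 2740 bases of exon, whereas its longest protein-coding transcript has 822 bases. Its level per kilobase and its places in the order therefore depend on the length used.

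**Figure D4:**
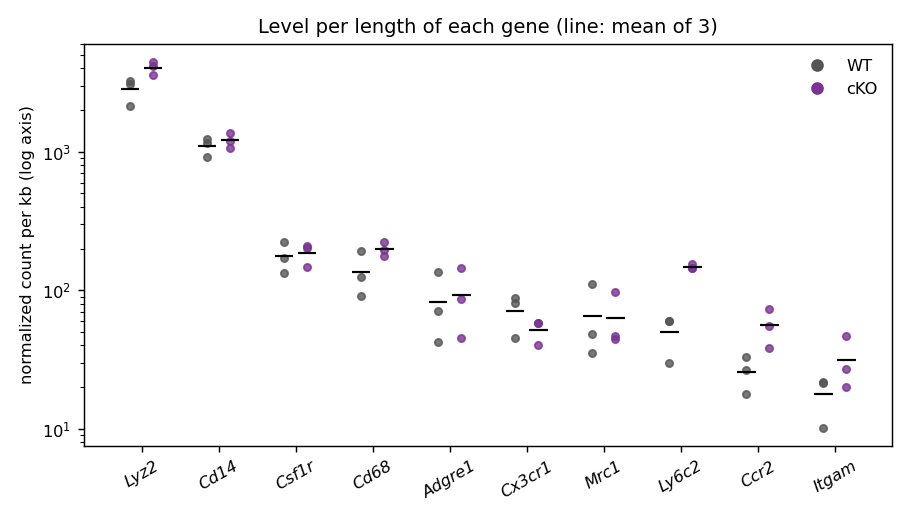
Normalized count per kilobase of exon on a log axis for the 10 genes, ordered by WT mean, with 3 WT points in grey, 3 cKO points in purple and the mean as a line. *Lyz2* and *Cd14* stand above the others in both genotypes, and the cKO points of *Ly6c2* (144 to 156) lie above its WT points (29.9 to 60.2).

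Wider gene lists of the same cells were read in the same fit. A list of 23 further monocyte and inflammatory macrophage genes had 21 tested, of which 21 had a positive log2 fold change, with a median of 1.95 against 0.0013 over all tested genes. Of these, 0 passed the adjusted threshold. At an unadjusted p under 0.05, 11 were higher and 0 lower (all tested genes, 6.91% and 7.08%). In 11 the cKO libraries lay wholly above the WT libraries, as in 10.5% of all tested genes. Many of these genes are also expressed by neutrophils, and the neutrophil list (8 of 10 genes tested) had a median of 3.53, with 3 higher and 1 lower at an unadjusted p under 0.05. Without cKO replicate 1, which was high in both lists, the median of the monocyte list was 0.95 and 9 of its 21 genes were higher at that level, where 5.31% of all tested genes were. The neutrophil median was then 2.00, with 2 of 8 higher. Without cKO replicate 2 the medians were 2.80 and 5.36, with 19 of 21 and 7 of 8 genes higher, where 8.93% of all tested genes were. *Il1b*, for the inflammatory cytokine interleukin-1 beta, had 993, 255 and 424 in cKO and 113, 72.0 and 91.9 in WT replicates 1, 2 and 3 (log2 fold change 2.38, limma adjusted p = 0.211). *Chil3*, for the chitinase-like protein Ym1, had 1002, 46.4 and 93.9 in cKO and 10.9, 0.900 and 3.99 in WT. *F10*, for coagulation factor X, had 96.8, 16.6 and 29.9 in cKO and 4.99 to 5.93 in WT. All 3 were highest in cKO replicate 1, and in each of them the groups did not overlap.

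Of 24 further resident macrophage genes, 20 were tested, 15 with a positive and 5 with a negative log2 fold change and a median of 0.17. At an unadjusted p under 0.05 only *Il10ra* was higher and 0 were lower (all tested genes, 6.91% and 7.08%). In 0 of 20 did the groups separate, where 10.5% of all tested genes were wholly higher and 10.9% wholly lower. *Il10ra*, for the receptor of the restraining cytokine interleukin-10, had 387, 239 and 323 in cKO and 218, 159 and 263 in WT replicates 1, 2 and 3 (log2 fold change 0.57, limma adjusted p = 0.347). *Trem2*, a lipid-sensing receptor, had 54.6, 48.6 and 51.6 in cKO and between 19.8 and 51.4 in WT. The complement genes *C1qa*, *C1qb* and *C1qc*, named here after their values were seen, differed by 0.30, 0.42 and 0.21 with overlapping groups. Without WT replicate 2 the median of this list was −0.085.

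Genes used by monocytes and macrophages alike lay between these lists. Of 13, 12 were tested, 11 with a positive log2 fold change, with a median of 0.59. At an unadjusted p under 0.05, 6 were higher and 0 lower (all tested genes, 6.91% and 7.08%). In 5 the cKO libraries lay wholly above the WT libraries, as in 10.5% of all tested genes. *Fcgr1*, the high-affinity Fc receptor CD64, had 161, 125 and 126 in cKO and 74.1, 56.7 and 68.9 in WT replicates 1, 2 and 3 (log2 fold change 1.03, SE 0.20, limma adjusted p = 0.169). *Tyrobp*, the adaptor DAP12, had 327, 226 and 277 in cKO and 156, 82.8 and 149 in WT (1.13, limma adjusted p = 0.211). *Fcgr3*, a low-affinity Fc receptor, differed by 0.81 (adjusted p = 0.276), and the cKO libraries lay above the WT libraries for all 3 of these genes.

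**Figure D5:**
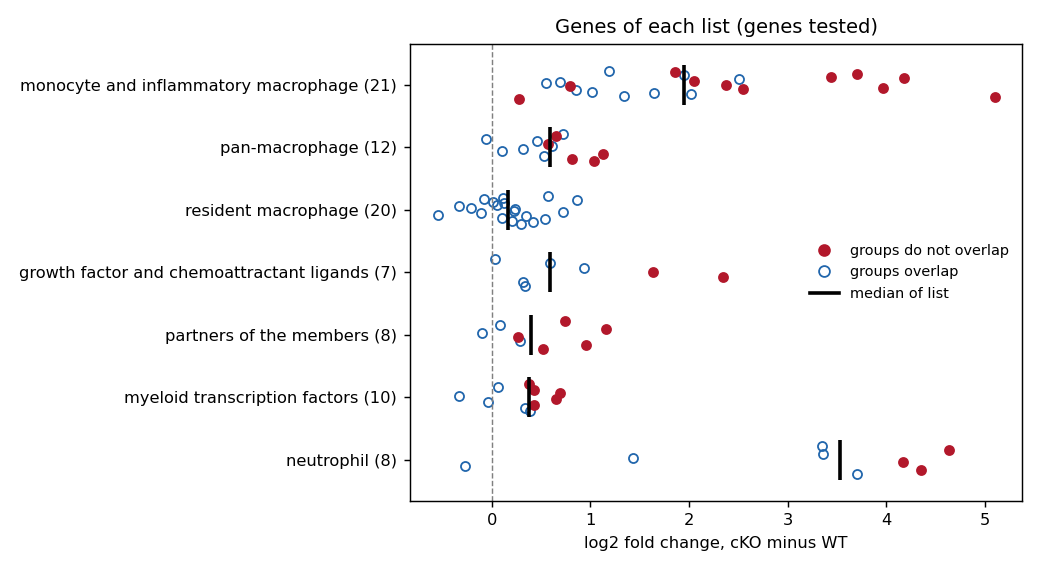
Log2 fold change of cKO minus WT for each tested gene of 7 lists, filled red where the groups do not overlap and open blue where they do, with the list median as a black bar and the median of all tested genes (0.0013) as a dashed line. The monocyte list has its median at 1.95, the resident list at 0.17 and the neutrophil list at 3.53.

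Chemoattractant and growth factor genes, most of them for ligands of the receptors in the set, were read next. Of 8 chemoattractants and growth factors, 7 were tested and 7 had a positive log2 fold change, with a median of 0.59. The CCR2 ligands *Ccl2* (log2 fold change 2.34, limma adjusted p = 0.169) and *Ccl7* (1.63, adjusted p = 0.211) were the 2 genes with an unadjusted p under 0.05. Of all tested genes, 6.91% were higher at that level. *Ccl8* had 181, 455 and 293 in cKO and 205, 97.2 and 172 in WT replicates 1, 2 and 3 (0.93, adjusted p = 0.365). *Cx3cl1*, the ligand of the *Cx3cr1* product, differed by 0.029 (SE 0.12), and *Csf1* and *Il34*, the ligands of the *Csf1r* product, by 0.34 and 0.32 (adjusted p = 0.517 and 0.516). These 3 genes lie outside the rule for named genes and were chosen after their values were seen. *Csf2* was below the filter.

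Of 8 genes listed as partners of the set's receptors, 7 had a positive log2 fold change (median 0.40). Among the 8 are *Csf2ra* and *Csf2rb*, for the GM-CSF receptor, which is not a partner of the set's receptors. At an unadjusted p under 0.05, 4 of the 8 were higher (all tested genes, 6.91%). In 5 the cKO libraries lay wholly above the WT libraries (all tested genes, 10.5%). *Itgb2*, the beta chain that pairs with CD11b, had 763, 580.4 and 595 in cKO and 538, 353 and 473 in WT replicates 1, 2 and 3 (log2 fold change 0.52, limma adjusted p = 0.306). *Tlr2*, a receptor for bacterial lipopeptides, had 666, 286 and 569 in cKO and 240.0, 199 and 205 in WT (adjusted p = 0.256). *Csf2rb*, the chain that the receptors for GM-CSF, interleukin-3 and interleukin-5 share, differed by 0.74 (adjusted p = 0.310), and neither gene overlapped between the groups. Of 10 myeloid transcription factors, 8 were positive (median 0.38). At an unadjusted p under 0.05, 5 were higher (all tested genes, 6.91%). In 5 the cKO libraries lay wholly above the WT libraries (all tested genes, 10.5%). *Nr4a1*, which patrolling monocytes require, had 359, 321 and 269 in cKO and 160.0, 198 and 229 in WT replicates 1, 2 and 3 (0.70, SE 0.18, limma adjusted p = 0.218). *Cebpb* and *Irf5* differed by 0.65 and 0.43 (adjusted p = 0.281 and 0.2995), with every cKO library above every WT library. Without cKO replicate 1, 3 of 8 genes of the partner list and 2 of 10 transcription factors were higher at that level (all tested genes, 5.31%). Without WT replicate 2, 1 gene of the partner list and 2 transcription factors were (all tested genes, 4.88%).

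Genes whose pattern was most like that of the set were looked for among 11870 protein-coding genes with a mean of at least 50, by Pearson's r over the 6 libraries, as a description. Nearest to the mean profile of *Ly6c2* and *Ccr2* were *Kars*, *Cdk19*, *Pafah1b3*, *Cers5* and *Pou2f1*, with r from 0.9997 down to 0.991, and 63 genes reached 0.95. These genes include some of small difference, such as *Kars*, a lysyl-tRNA synthetase, with 2919 to 3006 in cKO and 2581 to 2759 in WT. Nearest to the mean profile of the 4 resident genes were *Ms4a7*, a membrane protein of macrophages, and *Hfe*, *Hipk2*, *Tnxb* and *Sfxn3*, with r from 0.998 down to 0.990, and 33 genes reached 0.95. *Ms4a7* had 156, 318 and 221 in cKO and 360.5, 154 and 225 in WT replicates 1, 2 and 3, high in the same 2 libraries as *Adgre1* and *Mrc1*.

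Markers of some other cell types also differed between the groups. The 6 fibroblast markers summed to 12032 to 23763 normalized counts in cKO and to 6406 to 10596 in WT, and 6 of 6 had a positive log2 fold change. The 6 blood endothelium markers, *Ly6c1* among them, summed to 2670 to 5987 in cKO and 2257 to 2460 in WT. Of these, 5 of 6 were positive, and *Ly6c1* alone was higher at an unadjusted p under 0.05 (all tested genes, 6.91%). Without *Ly6c1* the sums overlapped, from 1389 to 2525 in cKO and from 991 to 1517 in WT. The 7 mast cell markers summed to 196 to 1110.0 in cKO and 99.9 to 169 in WT, and 4 eosinophil markers to 62.9 to 90.1 and 37.9 to 49.4. Neutrophil markers other than *Ly6g* were highest in cKO replicate 1 and at most 88.9 in WT. *Mpo* reached only 3.83 in cKO replicate 1, and *Ly6g* ran from 2200 to 3136 in all 6 libraries. Sums of 8 dendritic cell markers (391 to 461 in cKO, 396 to 455 in WT), 8 T and NK cell markers (423 to 581 and 430.0 to 580.1), 6 B cell markers (1531 to 4203 and 1224 to 2809) and 6 epithelial markers (138810 to 156580 and 146330 to 163750) overlapped. Lymphatic endothelium also expresses *Mrc1*, and its 4 markers summed to 493 to 590 in cKO and 260 to 625 in WT. No listed marker was at 0 in all 6 libraries, and the part of these cells in the results above was not tested.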

How the data were processed

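RNA-seq of colonic tissue gave 3 cKO and 3 WT libraries, held in a single table. The deposited values are a signal: read counts per gene that the authors divided by 1 size factor per library. The submitters' processing notes name HISAT2 2.0.5, featureCounts 1.5.0-p3 and the build hg18, although the gene identifiers are of mouse and 97.0% of 27202 genes have the coordinates of GENCODE mouse release 21 on GRCm38. Coordinates are those of the table. Gene length, also deposited by the authors, served for levels per kilobase. Strand setting and treatment of shared reads are not given in the sources used here. The table's genotype means, fold changes and p-values were not used.

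Every value is a whole multiple of its library's smallest value (within 0.001), between 0.900 and 1.11 normalized counts, and totals in these steps ran from 14914367 to 17547270. A count model on those steps was planned but not run. limma 3.58.1 (R 4.3.3) was fitted to log2(value + 1) of 16246 genes with a mean of at least 10 (lmFit, eBayes with trend and robust settings), and p-values were adjusted by Benjamini-Hochberg (threshold 0.05). With 3 libraries a group, an exact permutation test of 1 gene cannot go below p = 0.10. The fit was tested on simulated data. The labels number the libraries but do not state that each is a separate mouse, so p-values measure only the spread between these libraries. Figures were drawn with matplotlib 3.10.9.

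The 10 genes and all lists were chosen with earlier results of these data known. Named are the 10 genes, the 3 genes with the smallest p in each macrophage, monocyte, ligand, partner and transcription factor list, the 5 genes most like each profile, and *Lyz1*, *Ly6c1* and *Nedd4l*. A gene that this rule names is not reported here. Lists were not tested as sets. A Paneth cell list (3 of 5 genes listed, *Lyz1* among them) and a leukocyte list (3 genes, all positive) were also summed, to 237 to 14063 and 3375 to 5606 in cKO and 3255 to 4742 and 2662 to 3917 in WT, and overlapped. *Epx*, *Ear1*, *Defa24* and *Defa30* were not analysed here. *Ccl21a* has 2 rows and was left out. Promoter windows of *Cd14* and *Csf1r* are not reported here, and *Adgre1* was not among those used.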

Additional observations from a re-analysis of the deposited data

How the results depend on the processing

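For *Ly6c2*, *Ccr2*, *Cd68*, *Itgam*, *Cd14*, *Lyz2* and *Cx3cr1* the direction held under all 14 alternatives. These were other pseudocounts, filters and scalings, array weights, the replicate block and leaving out each library. Without 1 library, *Ly6c2* ranged from 1.29 to 1.79 and *Ccr2* from 0.87 to 1.35 (adjusted p = 0.0825 to 0.487 and 0.0784 to 0.512 from limma). Array weights gave cKO replicate 3 a weight of 4.39 and cKO replicate 1 one of 0.414. Under them 262 genes were higher and 369 lower, 2 of the 10 genes were called, *Nedd4l* was at −1.09 (adjusted p = 0.0212) and *Mrc1* turned to −0.19. With no filter on low values 7 genes were higher and 23 lower. Leaving out 1 library gave 0 to 70 genes higher and 0 to 52 lower, the most without cKO replicate 2, where *Nedd4l* was at −1.28 (adjusted p = 0.0131), over a range to −0.79. At an unadjusted p under 0.05, 0 to 1 of the 10 genes were lower (*Cx3cr1*, without WT replicate 2). Without 1 library, *Adgre1* ranged from −0.24 to 0.59, *Csf1r* from −0.088 to 0.29 and *Mrc1* from −0.33 to 0.51. The difference between monocyte and resident genes was 0.88 with *Cd14*, *Lyz2* and *Itgam* added. The causes were not tested. With the replicate number as a block, *Ly6c2* had 1.63 (limma adjusted p = 0.206) and *Ccr2* 1.11 (limma adjusted p = 0.198), and 0 genes were called. Deviations of same-numbered libraries from their genotype means had r of −0.029, −0.090 and −0.056 over all tested genes. So few values cannot settle whether the numbers pair the libraries. Counts for the wider lists without single libraries, and the endothelial sum without *Ly6c1*, were added after seeing the data. The edgeR, DESeq2 and TMM alternatives were not run. The widest intervals among the 10 genes were those of *Adgre1* and *Mrc1*.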
